A study of Mus musculus with 5 samples.

Results

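The 48 genes described here encode transcription factors that set or maintain the basal, luminal, alveolar and squamous identities of mammary and other lining epithelia. They were chosen as a named list, by symbol, and all 48 were found among the 24347 symbols of the deposited tables, where they account for 98 of 34535 RefSeq transcript rows. They were measured by RNA-seq in 2 Krt6a+ libraries (replicates 2 and 3 of the labels) and in 3 WAP+ libraries (replicates 1 to 3). The labels call the first population precancerous stem cells positive for keratin 6a and the second cells positive for whey acidic protein (WAP), a milk protein. Every library came from mammary precancerous lesions of MMTV-Wnt-1 transgenic mice on a mixed FVB, SJL and C57BL/6 background, in which the MMTV LTR drives a Wnt-1 transgene in the mammary epithelium, so the WAP+ cells carry that transgene too. Each library was a small pool of cells sorted with an antibody to TVA and amplified as full-length cDNA. How TVA came to mark each population, the age of the mice and whether libraries came from separate animals are not stated in the labels, so the tests measured only the spread between these libraries, which may be technical.

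Lineage transcription factors bind regulatory DNA of many genes at once, and small combinations of them are enough to hold a cell in a fate. In the mammary gland p63 marks the basal layer, GATA3, FOXA1 and the oestrogen receptor mark hormone-sensing luminal cells, ELF5 marks luminal progenitors and milk-secreting alveoli, and SOX10 is known in basal cells and luminal progenitors. In stratified epithelia such as epidermis, p63, the grainyhead-like (GRHL) factors, the OVOL repressors, KLF4, ZNF750 and PRDM1 act at successive steps between the basal layer and the cornified surface. The question of the series was how expression differs between the Krt6a+ and WAP+ cells.

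Levels are in FPKM, which divides the fragments of a transcript by its length and by the depth of the library, summed over the transcripts of a symbol, so levels of different genes can be set side by side. Genes reaching FPKM 1 numbered 8112 and 8580 in Krt6a+ libraries, against 8900, 8420 and 8202 in the WAP+ libraries. The widths of the deposited 95% intervals, read as counting error, corresponded to about 4160000 to 5840000 fragments per library, an approximation that covers counting error only. Krt6a had FPKM 1380 and 1133 in Krt6a+ libraries, against 168, 50 and 120 in WAP+ libraries, and Wap was listed at 0 in both Krt6a+ libraries, against 50.1, 126 and 13.9. A listed 0 may be a failed estimate, since the glycolytic gene Eno1 and the ribosomal protein genes Rpl10 and Rpl11, which every cell uses, stood at 0 throughout. Spearman's rho, a description across 5334 genes that are not independent, was 0.743 between the Krt6a+ libraries, 0.843 to 0.849 between WAP+ libraries and 0.696 to 0.761 across the populations, so the Krt6a+ libraries resembled each other less than the WAP+ libraries did. A gene that is lower in a pool may mean fewer cells of a type or less RNA per cell, which cannot be told apart in these libraries.

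The sequences below show the start sites on which several of the results turn. Trp63 has 2 start sites in RefSeq, 118 kb apart on the plus strand of mm10 chromosome 16. Transcripts from the upstream start encode the TA form of p63, with an N-terminal transactivation domain, and those from the downstream start encode the ΔN form, which lacks that domain and is the form of basal epithelia. The first 75 coding bases of a transcript from each start are given from GENCODE M21 (GRCm38), with the coding bases of the start's own exon in capitals.
TA start, NM_001127259, start codon at 25684290: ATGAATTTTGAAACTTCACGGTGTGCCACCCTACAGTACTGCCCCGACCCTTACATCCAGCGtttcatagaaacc
ΔN start, NM_001127264, start codon at 25802060: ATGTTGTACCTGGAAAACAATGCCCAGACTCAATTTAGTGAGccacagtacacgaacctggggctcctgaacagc
For 32 of the 48 members the RefSeq table of GRCm38.p6 gave promoters, 250 bases before to 50 after a start. Shown are those of the members nearest to the threshold of the test, Grhl3, Prdm1 and Hopx, and of Elf5, since Hopx and Elf5 each have 2 starts that the deposited rows distinguish.
Grhl3, chr4:135573583-135573882, minus strand: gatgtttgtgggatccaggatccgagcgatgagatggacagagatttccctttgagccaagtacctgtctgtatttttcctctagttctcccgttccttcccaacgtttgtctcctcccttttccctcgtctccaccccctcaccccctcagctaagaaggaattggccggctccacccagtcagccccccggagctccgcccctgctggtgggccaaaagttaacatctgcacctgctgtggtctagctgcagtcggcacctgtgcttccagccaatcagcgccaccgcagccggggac
Prdm1, chr10:44458699-44458998, minus strand: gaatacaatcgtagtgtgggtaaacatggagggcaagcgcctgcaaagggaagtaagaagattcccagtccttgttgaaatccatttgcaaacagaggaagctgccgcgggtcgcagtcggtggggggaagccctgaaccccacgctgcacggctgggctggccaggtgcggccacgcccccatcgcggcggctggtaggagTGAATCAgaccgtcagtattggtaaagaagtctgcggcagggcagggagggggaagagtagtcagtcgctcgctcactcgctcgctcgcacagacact
Hopx, upstream start, chr5:77115074-77115373, minus strand: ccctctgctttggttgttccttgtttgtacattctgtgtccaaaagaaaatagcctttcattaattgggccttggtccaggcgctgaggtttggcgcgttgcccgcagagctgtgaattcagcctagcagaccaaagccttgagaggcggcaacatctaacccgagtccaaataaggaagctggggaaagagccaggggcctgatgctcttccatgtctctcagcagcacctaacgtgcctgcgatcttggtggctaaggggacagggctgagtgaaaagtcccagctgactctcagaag
Hopx, downstream start, chr5:77095218-77095517, minus strand: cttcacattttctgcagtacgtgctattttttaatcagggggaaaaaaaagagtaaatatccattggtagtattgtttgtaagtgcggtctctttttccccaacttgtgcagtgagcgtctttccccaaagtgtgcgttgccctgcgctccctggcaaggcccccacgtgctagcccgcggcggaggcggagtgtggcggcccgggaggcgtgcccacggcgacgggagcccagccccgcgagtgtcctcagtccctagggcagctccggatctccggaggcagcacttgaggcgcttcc
Elf5, upstream start, chr2:103411848-103412147, plus strand: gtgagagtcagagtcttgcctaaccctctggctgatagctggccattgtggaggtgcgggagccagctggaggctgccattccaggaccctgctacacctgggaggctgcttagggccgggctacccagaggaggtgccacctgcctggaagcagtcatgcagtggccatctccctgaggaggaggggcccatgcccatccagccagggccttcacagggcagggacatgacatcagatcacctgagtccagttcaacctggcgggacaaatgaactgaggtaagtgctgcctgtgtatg
Elf5, downstream start, chr2:103423818-103424117, plus strand: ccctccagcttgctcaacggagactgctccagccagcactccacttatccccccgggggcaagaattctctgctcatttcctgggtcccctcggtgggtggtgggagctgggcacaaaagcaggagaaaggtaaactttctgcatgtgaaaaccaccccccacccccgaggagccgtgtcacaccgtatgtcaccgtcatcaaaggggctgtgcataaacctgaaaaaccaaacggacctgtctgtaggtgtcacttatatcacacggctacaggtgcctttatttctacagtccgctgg
Capitals mark matches to any of 4 motifs searched on both strands: a GRHL motif (AACNGGTT), an AP-1 motif (TGANTCA), a STAT motif (TTCNNNGAA) and a TATA box (TATAAA). Among these 6 windows a match was present only in that of Prdm1, to the AP-1 letters. It reads TGAATCA, with A at the open base N, and its 5′-most printed base lies 48 bases before the start. Binding there was not tested. Of all 32851 promoters in the table, 7.81% held the AP-1 letters, 2.09% the GRHL letters, 8.3% the STAT letters and 13.6% the TATA box letters. The deposited start of Grhl3 lies 12 bases from that of the table, and the starts of the other 5 windows equal deposited ones.

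Of the 48 members, 34 reached FPKM 1 in at least 2 libraries and were tested, and 14 were not. At an adjusted p under 0.05, 0 of the 34 passed (limma over 9682 genes), where 0.692% of all genes tested did, 0.258% with more and 0.434% with less transcript in Krt6a+ libraries. The 67 calls over all genes became 6, 5 and 6 without WAP+ library 1, 2 and 3. Fits without a Krt6a+ library held no spread within that population, so no calls are read from them. At an unadjusted p under 0.05 there were 10 members with more and 5 with less transcript in Krt6a+ libraries, or 44.1% of those tested, where 17.1% of all genes stood (7.66% with more and 9.45% with less). The populations did not overlap, after scaling, for 12 members on the Krt6a+ side and 7 on the WAP+ side, or 55.9%. Of all genes, 34.8% did not overlap, 17.4% on each side. The 7 include Gata2, which entered the test through WAP+ libraries only, and Elf5, which overlapped before scaling. The median log2 difference, Krt6a+ minus WAP+, was 0.39 over the 34 tested members and -0.01 over all genes tested. The members' median was 0.71 without Krt6a+ library 2, 0.19 without Krt6a+ library 3 and 0.18 without WAP+ library 2, and it ran from 0.15 with no filter to 0.61 with a replicate block among the settings that kept all libraries. A difference of 2 or more on the log2 scale, in either direction, was seen for 8 of the 34 members (23.5%) and for 9.02% of all genes. The members were chosen with earlier results of these data known, so no excess over all genes is read from these shares. Every difference given below is on the log2(scaled FPKM + 1) scale, with its moderated standard error, and an exact permutation test of 2 against 3 libraries could not go below p = 0.1.

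**Figure D1:**
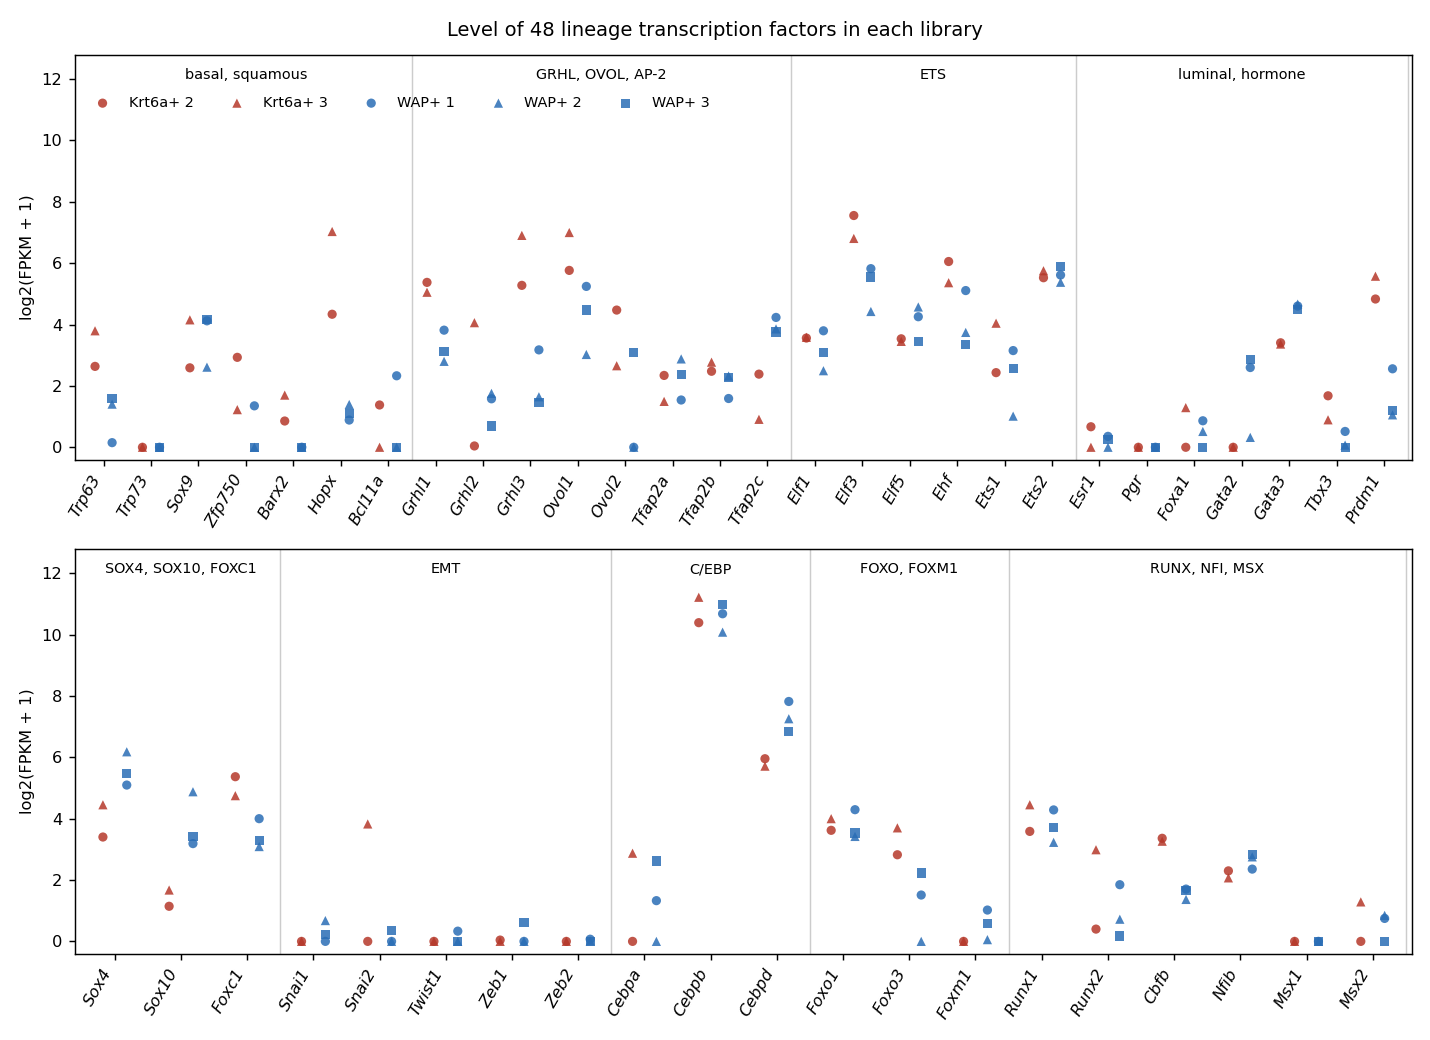
Level of each of the 48 members as log2(FPKM + 1), with 1 point per library; Krt6a+ libraries are red at the left of each gene and WAP+ libraries blue at the right. Cebpb lies between FPKM 1081 and 2379 in all 5 libraries, and the EMT factors lie at or near 0 apart from Snai2 at 13.2 in Krt6a+ library 3.

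The members with the largest differences were Hopx, Grhl3 and Prdm1, each with more transcript in both Krt6a+ libraries than in any WAP+ library. Positions are given in mm10. Hopx, a homeodomain protein without DNA-binding activity that is made in stem cells and differentiating keratinocytes, had FPKM 19.2 and 130 in Krt6a+ libraries, against 0.85, 1.63 and 1.16 in WAP+ libraries. Its Krt6a+ values thus lay far apart from each other and above all WAP+ values, and Krt6a+ minus WAP+ came to 4.44 ± 0.81 SE (limma, adjusted p = 0.0547). Grhl3, a grainyhead-like factor required for the epidermal barrier and for Tgm1 expression in mouse skin (chr4:135541888-135573620), had FPKM 37.8 and 119 in Krt6a+ libraries, against 8.03, 2.13 and 1.73 in WAP+ libraries. The deposited 95% bounds for Grhl3 ran from 34.7 to 40.8 for Krt6a+ library 2 and, for the nearest WAP+ library, number 1, from 6.45 to 9.6, and did not meet. The difference of Grhl3 was 3.91 ± 0.68 SE (limma, adjusted p = 0.052). Prdm1, which encodes the repressor BLIMP1 of terminal differentiation in epidermis and in B cells (chr10:44437174-44458748), had FPKM 27.5 and 46.7 in Krt6a+ libraries, against 4.89, 1.08 and 1.29 in WAP+ libraries. The lowest Krt6a+ value of Prdm1 was several times the highest WAP+ value, and its difference was 3.52 ± 0.64 SE (limma, adjusted p = 0.0547).

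These 3 members stood just outside the threshold, and settings decided on which side they fell. With genes above 0 in all 5 libraries, a smaller table of 7316 genes, the 3 passed at limma adjusted p = 0.0193 for Hopx, 0.0188 for Grhl3 and 0.0231 for Prdm1. Without Krt6a+ library 2 the log2 difference of Hopx was 5.69, and without Krt6a+ library 3 it was 3.19. Neither of these fits held any spread among Krt6a+ libraries. Over the 15 alternative settings the adjusted p of these genes ran from 0.0193 to 0.2 for Hopx, from 0.0188 to 0.2 for Grhl3 and from 0.0231 to 0.2 for Prdm1 (limma), and each kept a positive difference in every setting.

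The rows of Hopx separated by start site. The Hopx locus lies on the minus strand of mm10 chromosome 5 from 77086986 to 77115123. Transcripts of the downstream start, whose promoter is shown above, had FPKM 14 and 105 in Krt6a+ libraries, against 0.85, 1.63 and 1.16 in WAP+ libraries. The transcript of the upstream start, NM_175606, had FPKM 5.17 and 24.8 in Krt6a+ libraries, against a listed 0 in each WAP+ library, with deposited upper bounds there of 0.39, 0.18 and 0.19. The downstream start thus carried 73% and 80.9% of Hopx FPKM in Krt6a+ libraries, and the WAP+ levels were too low to compare shares. In a fit over 10765 transcript rows, of which 0.0743% passed, NM_001159900 of the downstream start differed by 3.96 ± 0.86 SE (limma, adjusted p = 0.111).

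Trp63, the basal master factor, was read only from its downstream start. Summed over its 8 transcript rows (chr16:25683765-25892088), Trp63 had FPKM 5.22 and 12.9 in Krt6a+ libraries, against 0.11, 1.65 and 1.99 in WAP+ libraries. The populations did not overlap, and the difference was 2.03 ± 0.76 SE (limma, adjusted p = 0.228). All 3 rows of the upstream start, NM_001127259, NM_001127260 and NM_001127261, were listed at 0 in every library, and the highest upper bound among them was 0.18 FPKM. Of the 5 rows of the downstream start, 4 were above 0 in some library. NM_001127262 had FPKM 5.22 (95% bounds 4.43 to 6) in Krt6a+ library 2 and was at 0 in Krt6a+ library 3, against 1.65 in WAP+ library 2 and 0 in WAP+ libraries 1 and 3. NM_001127264 had the opposite pattern, at 0 and 6.16 (5.08 to 7.23) in Krt6a+ libraries 2 and 3, against 0, 0 and 1.03 in the WAP+ libraries. NM_001127265, whose locus ends before theirs, had FPKM 0 and 6.7 (4.87 to 8.52) in Krt6a+ libraries, against 0.1, 0 and 0.96 in WAP+ libraries. NM_001127263 was at 0 in both Krt6a+ libraries, against 0.02, 0 and 0 in the WAP+ libraries, and NM_011641 was at 0 in all 5 libraries. Rows with the same start thus alternated between libraries of the same population, while the start itself did not. By row, the difference was 0.83 ± 0.96 SE for NM_001127262 and 0.97 ± 0.91 SE for NM_001127264 (limma over transcript rows, adjusted p = 0.736 and 0.663), and the other 6 rows were not tested.

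**Figure D2:**
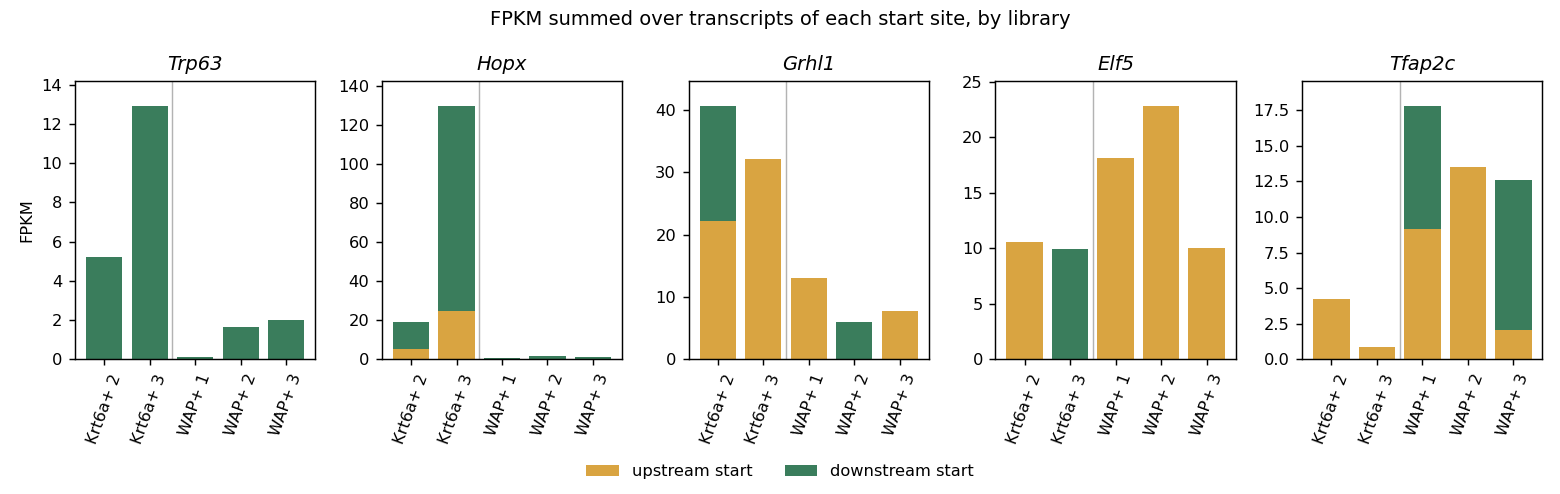
FPKM summed over the transcripts of the upstream and the downstream start site, stacked, for 5 members in each library, with Krt6a+ libraries left of the grey line and each panel on its own axis. The bars of Trp63 hold only the downstream start, and Elf5 shows the downstream start only in Krt6a+ library 3.

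The remaining factors of the basal and squamous group were low or did not follow 1 population. Sox9, a factor of progenitor cells in many epithelia (chr11:112782210-112787757), had FPKM 5.02 and 16.8 in Krt6a+ libraries, against 16.4, 5.11 and 17.1 in WAP+ libraries. Its values overlapped fully, and the difference was -0.38 ± 0.7 SE (limma, adjusted p = 0.843). Zfp750, the mouse counterpart of ZNF750 and a p63 target in human keratinocytes, had FPKM 6.63 and 1.34 in Krt6a+ libraries, against 1.55, 0 and 0 in WAP+ libraries, and the populations overlapped. The Zfp750 locus overlaps that of Tbcd, and the library kit does not mark strand, so reads of the 2 cannot be told apart where they share bases. Barx2, a homeobox factor, was at FPKM 0.81 and 2.25 in Krt6a+ libraries, against a listed 0 in each WAP+ library, and was not tested. Bcl11a, a factor of mammary progenitors, had FPKM 1.6 and 0 in Krt6a+ libraries, against 4.03, 0 and 0 in WAP+ libraries. Trp73, the p53 family member closest to p63, was listed at 0 throughout.

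Of the other GRHL and OVOL factors, Grhl1 and Ovol1 had more transcript in both Krt6a+ libraries than in any WAP+ library, while Grhl2 and Ovol2 overlapped between populations. Grhl1, a regulator of desmosomal cadherins in mouse epidermis (chr12:24572287-24617391), had FPKM 40.5 and 32.2 in Krt6a+ libraries, against 13.1, 5.97 and 7.7 in WAP+ libraries. The populations did not overlap, and the difference was 1.86 ± 0.5 SE (limma, adjusted p = 0.121). Grhl2, which maintains epithelial junction genes, was at FPKM 0.03 and 15.7 in the Krt6a+ libraries, a wider gap than between any WAP+ libraries (1.99, 2.38 and 0.62). Without Krt6a+ library 2 the log2 difference of Grhl2 was 2.54, and without library 3 it was -1.32. Ovol1, a repressor that limits proliferation of epidermal progenitors (chr19:5549137-5560575), had FPKM 53.4 and 127 in Krt6a+ libraries, against 36.9, 7.14 and 21.2 in WAP+ libraries, with no overlap and a difference of 2.02 ± 0.65 SE (limma, adjusted p = 0.172). Ovol2, its relative, had FPKM 21.2 and 5.31 in Krt6a+ libraries, against 0, 0 and 7.56 in WAP+ libraries, so WAP+ library 3 lay above Krt6a+ library 3.

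AP-2 factors, which act in epidermal and luminal mammary cells, were divided. Tfap2c, the family member tied to luminal identity (chr2:172549593-172558621), had FPKM 4.22 and 0.88 in Krt6a+ libraries, against 17.8, 13.5 and 12.5 in WAP+ libraries. All WAP+ values lay above both Krt6a+ values, and the difference was -2.38 ± 0.65 SE (limma, adjusted p = 0.126). Tfap2a had FPKM 4.07 and 1.82 in Krt6a+ libraries, against 1.91, 6.36 and 4.16 in WAP+ libraries, and Tfap2b 4.57 and 5.84, against 2.01, 4 and 3.82. Neither gave an unadjusted p under 0.05. Within each library, Tfap2c held 32.8% and 10.3% of the FPKM of the 3 AP-2 genes in Krt6a+ libraries, against 82%, 56.6% and 61.1% in WAP+ libraries, so the most abundant member was Tfap2b in Krt6a+ libraries, by a small margin in library 2, and Tfap2c in WAP+ libraries.

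Among the ETS factors of epithelia, Elf3 and Ehf had more transcript in both Krt6a+ libraries than in any WAP+ library, and Elf5 did not. Elf3, an ETS factor of differentiating and inflamed epithelia (chr1:135253574-135258472), had FPKM 187 and 111 in Krt6a+ libraries, against 55.6, 20.5 and 45.9 in WAP+ libraries. Ehf, its close relative in epithelia (chr2:103263433-103303196), had FPKM 65.5 and 40.2 in Krt6a+ libraries, against 33.5, 12.4 and 9.13 in WAP+ libraries. Neither gene overlapped between populations, with differences of 1.8 ± 0.52 SE for Elf3 and 1.53 ± 0.57 SE for Ehf (limma, adjusted p = 0.137 and 0.221). Elf5, the alveolar ETS factor that acts with STAT5 on milk genes (chr2:103412098-103450988), had FPKM 10.6 and 9.94 in Krt6a+ libraries, against 18.1, 22.8 and 10 in WAP+ libraries. Its highest Krt6a+ value and lowest WAP+ value were nearly equal, and the populations overlapped before scaling but not after. The difference of -0.72 ± 0.53 SE did not pass (limma, adjusted p = 0.531). The ratio of Elf3 plus Ehf to Elf5 within a library needs no scaling between libraries. It was 23.9 and 15.2 in Krt6a+ libraries, against 4.93, 1.44 and 5.49 in WAP+ libraries, with no overlap. The ratio restates the values above, was not tested and adds nothing to the result of Elf5 alone.

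Elf5 also differed in start site in 1 library. Its upstream-start transcript, NM_001145813, carried all Elf5 FPKM in Krt6a+ library 2 and in the 3 WAP+ libraries. In Krt6a+ library 3 that row was listed at 0, with an upper bound of 0.21, and NM_010125 of the downstream start stood at 9.94 (95% bounds 7.88 to 12). The starts lie on mm10 chromosome 2 at 103412098 and 103424068, and their promoters are the last 2 sequences above. Grhl1 was likewise divided between starts, without regard to population. Grhl1 from its upstream start had FPKM 22.2 and 32.2 in Krt6a+ libraries, against 13.1, 0 and 7.7 in WAP+ libraries, and from its downstream start 18.4 and 0, against 0, 5.97 and 0. For Tfap2c the upstream start had FPKM 4.22 and 0.88 in Krt6a+ libraries, against 9.14, 13.5 and 2.08 in WAP+ libraries, and the downstream start was listed at 0 in both, against 8.63, 0 and 10.5. In all, 16 members have more than 1 start, and how reads were divided among near-identical rows in amplified pools is uncertain.

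Among the ETS factors that are not restricted to epithelia, Ets2, a target of growth factor signalling, was steady at FPKM 45.1 and 53 in Krt6a+ libraries, against 48, 40.6 and 58.7 in WAP+ libraries. Its difference was -0.11 ± 0.4 SE (limma, adjusted p = 0.929). Elf1 had FPKM 10.8 and 11 in Krt6a+ libraries, against 12.9, 4.64 and 7.54 in WAP+ libraries, and Ets1 4.4 and 15.5, against 7.89, 1.02 and 4.91. Both overlapped between populations. The Elf1 locus overlaps that of Wbp4.

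**Figure D3:**
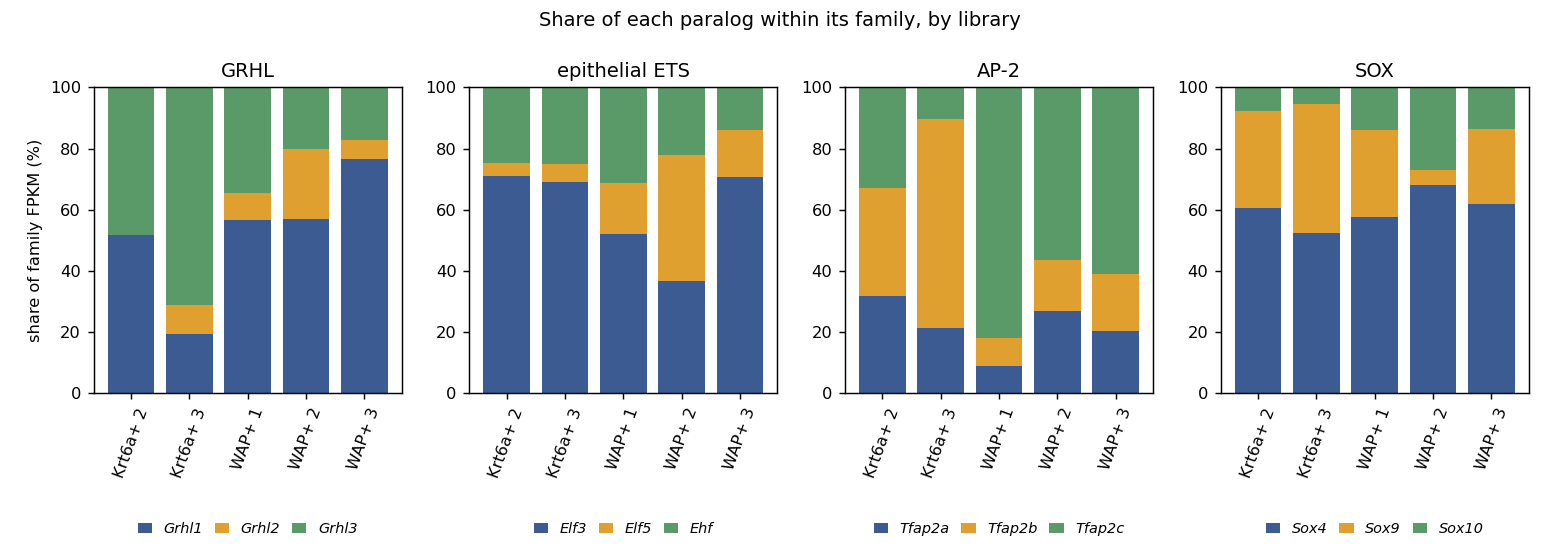
Share of each paralog in the summed FPKM of its family, in percent, for 4 families in each library, with Krt6a+ libraries at the left of each panel. Elf5 holds 4.02% and 6.17% in Krt6a+ libraries, against 16.9%, 41% and 15.4% in WAP+ libraries, and Grhl3 holds 48.2% and 71.3%, against 34.7%, 20.4% and 17.2%.

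The hormone receptors of luminal cells were close to absent from the tables. Esr1, the oestrogen receptor, had FPKM 0.59 and 0 in Krt6a+ libraries, against 0.28, 0 and 0.2 in WAP+ libraries, and Pgr, the progesterone receptor, was listed at 0 in all 5. Foxa1, the pioneer factor that opens chromatin for the oestrogen receptor, had FPKM 0 and 1.45 in Krt6a+ libraries, against 0.82, 0.43 and 0 in WAP+ libraries. These genes were not tested, and low values of this kind are not evidence of absence at this depth. Of 12 genes listed as responding to these receptors, 6 were tested and 0 passed (limma over all genes), and 0 had an unadjusted p under 0.05. Areg, the epidermal growth factor family ligand that oestrogen induces in the gland, had FPKM 2.44 and 70.8 in Krt6a+ libraries, against 27.1, 13 and 29.4 in WAP+ libraries, so the widest gap was within a population. Tbx3, a T-box factor of the mammary line, had FPKM 2.2 and 0.86 in Krt6a+ libraries, against 0.43, 0.05 and 0 in WAP+ libraries, and was not tested.

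Gata3 was the luminal factor with the tightest values. It is required for luminal cell identity (chr2:9857078-9878600), and it had FPKM 9.6 and 9.3 in Krt6a+ libraries, against 23.3, 24.4 and 21.3 in WAP+ libraries. Scaled means were 9.02 ± 1.1 (SD, n = 2) in Krt6a+ libraries and 23.9 ± 3.19 (SD, n = 3) in WAP+ libraries, and the difference was -1.31 ± 0.46 SE (limma, adjusted p = 0.198). The difference stayed between -1.2 and -1.42 whichever library was left out. Gata2, a factor of blood and endothelial cells, was listed at 0 in both Krt6a+ libraries, against FPKM 5.06, 0.25 and 6.25 in WAP+ libraries, and it alone entered the test through 1 population only.

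Sox10 and Sox4 had more transcript in every WAP+ library. Sox10, known from neural crest and from mammary progenitors (chr15:79154913-79164490), had FPKM 1.21 and 2.19 in Krt6a+ libraries, against 8.11, 28.4 and 9.61 in WAP+ libraries. The difference of Sox10 was -2.52 ± 0.74 SE (limma, adjusted p = 0.142), the most negative among tested members. Sox4, a factor of progenitor survival and migration (chr13:28950730-28953682), had FPKM 9.57 and 20.9 in Krt6a+ libraries, against 33.2, 71.5 and 43.3 in WAP+ libraries, at -1.77 ± 0.55 SE (limma, adjusted p = 0.163). WAP+ library 2 was the highest for both genes. Foxc1, a forkhead factor found in basal-like mammary tumours (chr13:31806646-31810635), went the other way, at FPKM 40.3 and 25.9 in Krt6a+ libraries, against 15, 7.52 and 8.75 in WAP+ libraries. The populations did not overlap for Foxc1, at 1.49 ± 0.51 SE (limma, adjusted p = 0.189).

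**Figure D4:**
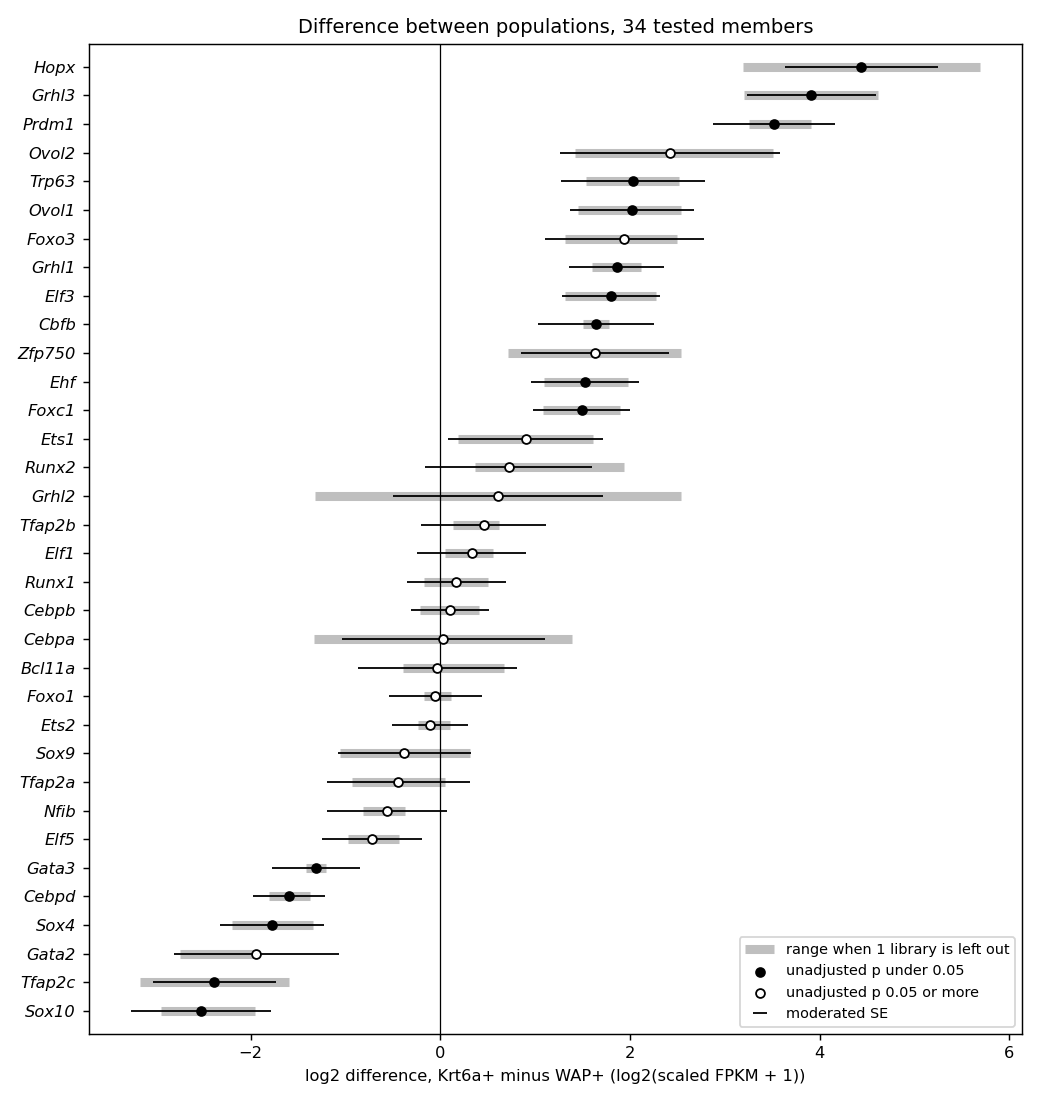
Log2 difference, Krt6a+ minus WAP+, of the 34 tested members with its moderated standard error (thin line) and its range when 1 library is left out (grey bar); filled points have an unadjusted p under 0.05. Hopx at 4.44 is the highest and Sox10 at -2.52 the lowest, and the widest grey bar, that of Grhl2, runs from -1.32 to 2.54.

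The factors of epithelial-mesenchymal transition were at or near 0. None of the 5 was tested. Snai1 was listed at 0 in both Krt6a+ libraries, against FPKM 0, 0.6 and 0.17 in WAP+ libraries, and Twist1, Zeb1 and Zeb2 stayed under FPKM 1 in all 5. Snai2, which is also a factor of mammary basal stem cells, was the exception, at FPKM 0 and 13.2 in Krt6a+ libraries, against 0, 0 and 0.29 in WAP+ libraries. Krt6a+ library 3 was also the highest of the 5 for the summed fibroblast list, with 76.4 and 301 in Krt6a+ libraries, against 19.2, 15.3 and 89 in WAP+ libraries, mostly Dcn and Postn. Its defining genes Col1a1, Col3a1 and Pdgfra were listed at 0 in that library, and the part of fibroblasts in the Snai2 value was not tested. Of 14 genes of epithelial and mesenchymal junctions, 11 were tested and 0 passed (limma), with 0 higher and 2 lower in Krt6a+ libraries at an unadjusted p under 0.05, where 9.45% of all genes were lower. The 2 were the epithelial genes Epcam and Cldn7. Epcam had FPKM 549 and 908 in Krt6a+ libraries, against 1408, 1108 and 1493 in WAP+ libraries.

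Cebpb was the most abundant member in both populations. It encodes a C/EBP factor needed for mammary duct and alveolar development (chr2:167688915-167690432), and it had FPKM 1340 and 2379 in Krt6a+ libraries, against 1639, 1081 and 2029 in WAP+ libraries. The values overlapped, and the difference was 0.1 ± 0.41 SE (limma, adjusted p = 0.94). Cebpd, a C/EBP factor of the acute phase and of mammary involution (chr16:15887286-15889545), had FPKM 61 and 51.4 in Krt6a+ libraries, against 225, 152 and 113 in WAP+ libraries, without overlap. The difference was -1.59 ± 0.38 SE (limma, adjusted p = 0.0982), and it lay between -1.37 and -1.81 when a library was left out. The Cebpd locus overlaps that of Spidr. Cebpa had FPKM 0 and 6.33 in Krt6a+ libraries, against 1.51, 0 and 5.15 in WAP+ libraries. The ratio of Cebpb to Cebpd within a library was 21.9 and 46.3 in Krt6a+ libraries, against 7.28, 7.09 and 17.9 in WAP+ libraries.

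Forkhead factors of the FOXO class, which respond to insulin and growth factor signalling, differed between members. Foxo1 had FPKM 11.3 and 15 in Krt6a+ libraries, against 18.6, 9.71 and 10.6 in WAP+ libraries, a difference of -0.05 ± 0.49 SE (limma, adjusted p = 0.978). Foxo3 had FPKM 6.08 and 12 in Krt6a+ libraries, against 1.85, 0 and 3.68 in WAP+ libraries, without overlap, at 1.94 ± 0.84 SE (limma, adjusted p = 0.293). Foxm1, the forkhead factor of G2 and mitosis, was listed at 0 in both Krt6a+ libraries, against FPKM 1.03, 0.04 and 0.49 in WAP+ libraries. Of 14 mitotic genes listed as its targets, 6 were tested and 0 passed (limma), and Ccnb1, Bub1 and Kif20a were listed at 0 in every library. Birc5, an inhibitor of apoptosis made in mitosis, was at 0 in both Krt6a+ libraries, against FPKM 9.7, 2.69 and 2.45 in WAP+ libraries, while Cdc25b, a phosphatase that opens mitosis, had 41.9 and 9.91, against 2.9, 1.11 and 2.55.

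The RUNX proteins bind DNA with the shared partner CBFB. Runx1 had FPKM 11 and 20.9 in Krt6a+ libraries, against 18.5, 8.37 and 12.1 in WAP+ libraries, a difference of 0.17 ± 0.52 SE (limma, adjusted p = 0.913). Cbfb (chr8:105170674-105217988) had FPKM 9.27 and 8.61 in Krt6a+ libraries, against 2.26, 1.58 and 2.18 in WAP+ libraries, tight within each population and without overlap, at 1.64 ± 0.61 SE (limma, adjusted p = 0.227). The level of Cbfb came from NM_001161458 in Krt6a+ library 2 and from NM_001161457 in library 3. In WAP+ libraries it came from NM_001161457, at FPKM 1.33, 0.27 and 0.98, and from NM_001161456, at 0.93, 1.31 and 1.2. NM_001161456 was listed at 0 in both Krt6a+ libraries, so it lay on the other side from the sum. Runx2 had FPKM 0.32 and 6.93 in Krt6a+ libraries, against 2.6, 0.65 and 0.13 in WAP+ libraries. Nfib, a nuclear factor I protein of the mammary and lung epithelium, had FPKM 3.92 and 3.2 in Krt6a+ libraries, against 4.12, 5.75 and 6.12 in WAP+ libraries, and overlapped once scaled (-0.56 ± 0.63 SE; limma, adjusted p = 0.701). Msx1 was listed at 0 throughout, and Msx2 stayed at or under FPKM 1.44.

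In order of mean scaled FPKM, Cebpb led in both populations, at 1738 ± 524 (SD, n = 2) in Krt6a+ libraries and 1650 ± 595 (SD, n = 3) in WAP+ libraries. In Krt6a+ libraries Elf3, Ovol1, Grhl3 and Hopx followed, at 144 ± 65.1, 83.7 ± 41.3, 72 ± 47.3 and 67.3 ± 67.5 (SD, n = 2), and neighbours among these 4 did not differ beyond their spread. In WAP+ libraries Cebpd, Sox4, Ets2 and Elf3 followed, at 165 ± 34.1, 52.4 ± 24.9, 51.3 ± 13.8 and 41.3 ± 16.4 (SD, n = 3), where Cebpd stood apart and neighbours among the other 3 did not differ beyond their spread. Grhl3 ranked 4 of 48 in Krt6a+ libraries and 22 in WAP+ libraries, Hopx 5 and 31, and Prdm1 10 and 26. Sox10 ranked 33 in Krt6a+ libraries and 10 in WAP+ libraries, and Tfap2c 32 and 11.

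Genes listed as downstream of these factors were described by count. Of 16 basal genes listed as dependent on p63, all were tested, and 1 passed. The list does not say whether p63 raises or lowers each gene, and dependence on p63 was not tested. The gene that passed was Krt5, a keratin of basal cells. It had FPKM 434 and 374 in Krt6a+ libraries, against 22.4, 13.4 and 34.7 in WAP+ libraries, at 4.02 ± 0.49 SE (limma, adjusted p = 0.0275). Without WAP+ library 1, 2 or 3 the difference of Krt5 was 3.92, 3.73 or 4.41 and no longer passed (limma, adjusted p = 0.135, 0.149 and 0.0558). At an unadjusted p under 0.05, 8 were higher and 0 lower in Krt6a+ libraries, where 7.66% of all genes were higher, and the median of the 16 was 1.33. Igfbp3, among the 8, overlapped between populations, at FPKM 18.4 and 406, against 22.7, 1 and 2.56. Col17a1, a hemidesmosomal collagen, had FPKM 27.4 and 76.1, against 3.32, 4.11 and 1.44, and Dsg3, a desmosomal cadherin, had 22.2 and 32.5, against 0.4, 0 and 2. Of 18 genes of epidermal differentiation, of which 17 were found by symbol, 9 were tested and 0 passed (limma). Their median was 1.75. Aloxe3 alone of the 9 went the other way, at FPKM 0.9 and 6.37, against 9.81, 8.13 and 10.2, without overlap. At an unadjusted p under 0.05, 5 were higher and 0 lower, where 7.66% of all genes were higher. Of these 5, Cdsn reached FPKM 1 in Krt6a+ libraries only, and Sprr1a had FPKM 21990 and 6512, against 3859, 1395 and 1458. Tgm1, the transglutaminase of the cornified envelope and a GRHL3 target in mouse skin, had FPKM 106 and 69.2 in Krt6a+ libraries, against 31.4, 13.4 and 16.5 in WAP+ libraries. Ivl, Krt1, Tgm3 and Alox12b, also of cornifying epidermis, were listed at 0 in all 5 libraries.

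Of 12 alveolar genes that act with or under STAT5 and ELF5, all were tested and 4 passed, all lower in Krt6a+ libraries, where 0.434% of all genes passed in that direction. Of the 12, 5 entered the test through WAP+ libraries only, where they are higher, among them Lalba and Wap of the 4, and nothing is read from the count. The median of the 12 was -3.74. Spp1, osteopontin, had FPKM 13.6 and 56.8 in Krt6a+ libraries, against 4698, 2477 and 1201 in WAP+ libraries (-6.5 ± 0.63 SE; limma, adjusted p = 0.0111). Without WAP+ library 1, 2 or 3 the difference of Spp1 was -6.13, -6.43 or -6.92 and did not pass (limma, adjusted p = 0.0892, 0.137 and 0.0558), and the other 3 genes, Cel, Lalba and Wap, also lost the threshold each time. Without Krt6a+ library 2, Lalba and Wap missed it as well, at 0.0573 and 0.0582 (limma, adjusted p). Lalba, the alpha-lactalbumin of lactose synthesis, was listed at 0 in both Krt6a+ libraries, against FPKM 32, 64.7 and 12.1 in WAP+ libraries. The list includes Wap, for which the WAP+ cells are named. Stat5a itself had FPKM 5.63 and 0.77 in Krt6a+ libraries, against 4.74, 3.1 and 2.01 in WAP+ libraries.

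Of 62 relatives of the members, from the same protein families, 23 were tested and 0 passed (limma), with 4 higher and 3 lower in Krt6a+ libraries at an unadjusted p under 0.05, where 7.66% of all genes were higher and 9.45% lower, and a median of 0.35. Of these 7 genes, 4 reached FPKM 1 in 1 population only, Gabpa and Bcl11b in Krt6a+ libraries and Foxi1 and Snai3 in WAP+ libraries. Foxq1, a forkhead factor of hair and epithelia, had FPKM 73.6 and 204 in Krt6a+ libraries, against 13.2, 3.19 and 14.8 in WAP+ libraries, without overlap. Gabpa, a broadly expressed ETS factor, had FPKM 4.93 and 8.28 in Krt6a+ libraries, against a listed 0 in each WAP+ library. Foxi1, a forkhead factor of ion-transporting cells, was listed at 0 in Krt6a+ libraries, against 7.81, 9.68 and 3.52 in WAP+ libraries.

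**Figure D5:**
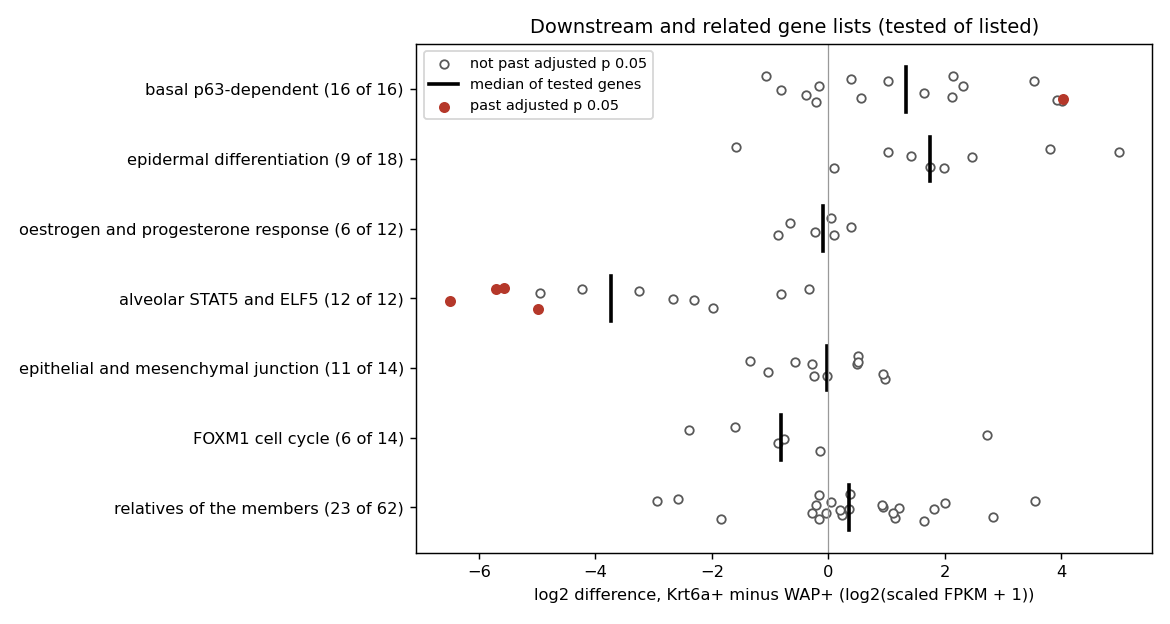
Log2 difference, Krt6a+ minus WAP+, of each tested gene in 7 lists downstream of or related to the members; red points passed at an adjusted p under 0.05 and black bars are medians. The medians run from -3.74 for the alveolar list to 1.75 for the epidermal differentiation list.

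Markers of cell types moved with some of these results. The summed FPKM of 9 luminal markers was 1918 and 5014 in Krt6a+ libraries, against 9658, 8470 and 8357 in WAP+ libraries, in the direction of Gata3, Tfap2c and Sox10. Krt8, Krt18, Krt19 and Epcam carried most of that sum. Other genes of the luminal list lay on the opposite side, among them Aldh1a3, an aldehyde dehydrogenase of luminal progenitors, at FPKM 119 and 175 in Krt6a+ libraries, against 62.3, 19.7 and 33.2 in WAP+ libraries, and Kit, a receptor of the same cells, at 9.12 and 7.35, against 3.15, 3.84 and 2.85. The differences of Cldn3 and Cldn4 were 0.49 and 0.94, with overlap. That of 9 basal markers was 2953 and 3366 in Krt6a+ libraries, against 1358, 265 and 1149 in WAP+ libraries, in the direction of Trp63, and was mostly Krt5, Krt14 and Krt17. Krt17 itself overlapped, at FPKM 207 and 692 in Krt6a+ libraries, against 331, 55 and 205 in WAP+ libraries. Itgb4, another gene of the list, was on the Krt6a+ side without overlap, at 17.2 and 5.18, against 3.78, 4.16 and 3.77. Oxtr did not exceed 0.26 in any library. Several other basal markers lay on the WAP+ side. The contractile gene Acta2 had FPKM 0.66 and 0.4 in Krt6a+ libraries, against 23.7, 25.2 and 8.35 in WAP+ libraries. Myh11, a smooth muscle myosin, had 0.03 and 0.03, against 1, 0.54 and 1.23, and was not tested. Cnn1, another contractile gene, had 0.69 and 0, against 0.1, 2.57 and 2.44, with overlap. Itga6, an integrin of basal cells, had 9.03 and 31.5 in Krt6a+ libraries, against 38.8, 33.2 and 30.9 in WAP+ libraries. Endothelial markers summed to 14.1 and 18.2 in Krt6a+ libraries, against 171, 7.53 and 2.32 in WAP+ libraries, and all 9 were above 0 only in WAP+ library 1, which held the highest Bcl11a value and FPKM 5.06 of Gata2. WAP+ library 3 had more Gata2, at 6.25, with the lowest endothelial sum of the 5 libraries. Most of the endothelial sum in Krt6a+ libraries was Flt1, at 14 and 10.6, against 5.69, 1.99 and 2.03 in WAP+ libraries. In WAP+ library 1 most of it was Cldn5, at 124. Immune markers summed to 7.39 and 22.2 in Krt6a+ libraries, against 24.1, 39.7 and 141 in WAP+ libraries. Most of that sum was Cd68 in Krt6a+ libraries, and Cd68 and S100a9 in WAP+ libraries, with S100a9 at 116 in library 3. Of the 13 immune markers, 7 were listed at 0 in all 5 libraries, among them Ptprc, the pan-leukocyte marker. Fabp4, a fatty acid binding protein of adipocytes and also of capillary endothelium, was listed at 0 in both Krt6a+ libraries, against FPKM 2188, 65.8 and 20.3 in WAP+ libraries (limma, adjusted p = 0.0791). Fabp4 entered the test through WAP+ libraries only, where it is higher, and nothing is read from that p. The other 5 adipocyte markers were listed at 0 in every library. Hspa1a, a heat shock gene induced by handling, had FPKM 66.6 and 146 in Krt6a+ libraries, against 7.75, 10 and 10.1 in WAP+ libraries (3.17 ± 0.5 SE; limma, adjusted p = 0.0448), on the side of Grhl3, Hopx and Prdm1. Without WAP+ library 1, 2 or 3 it did not pass (limma, adjusted p = 0.141, 0.2 and 0.169). Without Krt6a+ library 3 its difference was 2.71. Fos and Jun, listed with Hspa1a for RNA quality, overlapped between populations, with differences of -0.22 and 0.49. The part of these cell types and of handling in the members' differences was not tested.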

How the data were processed

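Small pools of sorted cells gave amplified full-length cDNA (SMART-Seq v4) and Nextera libraries read as pairs on a HiSeq, per the labels' protocols. Per the submitters' processing notes, TopHat, Cufflinks and mm10 were used; for their versions and for any filter on reads, the sources used here give nothing. The deposited tables give, per the file headers, an FPKM per RefSeq transcript with its 95% bounds. The deposited coverage signal was not used. Deposited locus starts count from 0 and were raised by 1.

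FPKM was summed by symbol and divided by a median-ratio factor per library (0.98 and 1.128 for Krt6a+, 1.14, 0.909 and 0.873 for WAP+). The 9682 genes at FPKM 1 or more in at least 2 libraries were compared as log2(scaled FPKM + 1) with limma 3.58.1 in R 4.3.3 (two-sided; eBayes with a trend; degrees of freedom 3 residual plus 4.87 prior). Adjustment was by Benjamini-Hochberg over all of them, at 0.05; such differences understate the change of low genes. The procedure was tested on simulated data. SDs are of scaled FPKM. Members and lists were chosen with earlier results of these data known. Named with every value are members with an unadjusted p under 0.05, the 2 most abundant of each role group, and Trp63, Elf5, Sox10, Esr1, Foxa1 and Gata3; others, and list genes beyond the 3 with the smallest p, were named after their values were seen. Alternatives changed the pseudocount, filter, scaling, variance trend, transcript summing, replicate block and libraries.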

Additional observations from a re-analysis of the deposited data

How the results depend on the processing

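Members past the threshold numbered 0 with all 5 libraries and the main settings, and 2 with a pseudocount of 5 (Grhl3 and Prdm1). They numbered 3 with a stricter filter of FPKM 5 in 2 libraries and 3 with genes above 0 in all libraries (Grhl3, Hopx and Prdm1 both times). None passed when a WAP+ library was left out. Fits without a Krt6a+ library held no spread within that population, so no calls are read from them. The median difference of the tested members was 0.39, and 0.18 to 0.71 when a library was left out, the highest without Krt6a+ library 2. Calls over all genes were 67 with the main settings. They ranged from 5 with no filter, and 5 without WAP+ library 2, to 163 with the stricter filter and 167 with genes above 0 in all libraries. They numbered 26 with a pseudocount of 0.1, 16 with no variance trend, and 6 without WAP+ library 1 or 3. Of 344 values of 23 named members under 15 alternatives, 322 kept direction and side and 9 passed the threshold (all of Hopx, Grhl3 or Prdm1). Among the 9 is Hopx without Krt6a+ library 2, where no spread among Krt6a+ libraries was left, and nothing is read from it. The other 13 changed sign, all of members with a difference between -0.38 and 0.17. The ranges are over left-out libraries. These were Sox9 (0.31 without Krt6a+ library 2, range from -1.06), Ets2 (0.01 with no scaling and with quantile normalization, 0.1 without WAP+ library 3, range from -0.23), Cebpb (-0.21 without Krt6a+ library 3, -0.11 without WAP+ library 2, range to 0.41), Foxo1 (0.06 with no scaling, 0.11 with a replicate block, 0.04 without Krt6a+ library 2, 0.11 without WAP+ library 1) and Runx1 (-0.14 with the highest row per symbol, -0.17 without Krt6a+ library 3, -0.05 without WAP+ library 2, range to 0.5). The replicate block on shared numbers 2 and 3 gave 0 member calls, a median of 0.61 and 34 calls over all genes. The labels do not say that shared numbers pair libraries, so the main fit had no block. Deviations of same-numbered libraries had correlations of 0.05 and 0. The deviations of the 2 Krt6a+ libraries mirror each other, so these correlations cannot decide whether libraries were paired. Outside the 23 named members, 4 other tested members also changed sign when a library was left out. They were Grhl2 (0.61, range -1.32 to 2.54), Cebpa (0.03, range -1.33 to 1.39), Tfap2a (-0.44, range -0.93 to 0.05) and Bcl11a (-0.03, range -0.39 to 0.67). With 2 libraries in 1 population and low FPKM, 14 members could not be tested and small differences were not detectable.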
